A study of Mus musculus with 6 samples.

Results

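The genes described here encode ligands, receptors and binding proteins of platelet-derived growth factor (PDGF) and insulin-like growth factor (IGF) signaling. They are Pdgfa, Pdgfb, Pdgfc, Pdgfd, Pdgfrb, Igf1, Igf2, Igf1r, Igfbp3 and Igfbp7, a list of names chosen with earlier results of these data known. All 10 were found among the 36047 genes to which the deposited transcripts could be joined, and all 10 were among the 20094 genes that passed the filter on low counts. RNA was sequenced from the infarct area of female C57BL6 mice aged 12 weeks, taken 48 h after ischemia/reperfusion (I/R), in which a coronary artery is closed and then reopened. Of these mice, 3 had received LGK-974 by gavage and 3 had received its vehicle, DMSO in citrate buffer, so that the surgery was common to both groups. LGK-974 inhibits Porcupine, the acyltransferase that adds a lipid to Wnt proteins before they are secreted. There was no uninjured group, and the comparison is therefore of the drug with the vehicle in injured hearts.

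PDGF ligands are dimers that signal through the receptor tyrosine kinases PDGFRα and PDGFRβ and drive the growth and migration of fibroblasts, pericytes and smooth muscle cells. IGF1 and IGF2 signal through the receptor tyrosine kinase IGF1R toward PI3K and AKT, and are known for effects on survival and growth of cardiomyocytes and fibroblasts. IGF binding proteins hold the ligands outside the cell and set how much of them reaches the receptor, and proteases release the ligands again.

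Between them the 10 genes have 46 annotated transcripts in the deposited files, and 3 short exons on which their products differ are shown first, because the transcript results below turn on them. The sequences are from GENCODE transcripts on GRCm38, 5′ to 3′ on the strand of the gene. The Igf1 exon of 52 bases lies at chr10:87915298-87915349 (plus strand) and gives the IGF1 precursor the Eb type of carboxy-terminal E peptide. The coding part of the Pdgfa exon at chr5:138978635-138978690 (minus strand) ends the long form of PDGF-A with a basic stretch that holds the protein at the cell surface. The Pdgfc exon at chr3:81131018-81131073 (plus strand) occurs in transcripts annotated for nonsense-mediated decay, the degradation of transcripts with an early stop codon. Capitals mark the stop codon in the Pdgfa and Pdgfc sequences.
Igf1: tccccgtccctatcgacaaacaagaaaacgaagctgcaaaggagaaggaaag
Pdgfa: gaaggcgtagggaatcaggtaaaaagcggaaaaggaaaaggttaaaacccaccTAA
Pdgfc: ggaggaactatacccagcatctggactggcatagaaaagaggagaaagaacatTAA

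The promoters of Igfbp7 and Igfbp3 are shown as well, since these binding proteins were the members that stood furthest apart between the groups, in opposite directions. Each is the 250 bases before the RefSeq start site on GRCm38.p6. The Igfbp7 window lies at chr5:77408046-77408295 and the Igfbp3 window at chr11:7213924-7214173, both on the minus strand. Capitals mark the GC box (GGGCGG, on either strand).
Igfbp7: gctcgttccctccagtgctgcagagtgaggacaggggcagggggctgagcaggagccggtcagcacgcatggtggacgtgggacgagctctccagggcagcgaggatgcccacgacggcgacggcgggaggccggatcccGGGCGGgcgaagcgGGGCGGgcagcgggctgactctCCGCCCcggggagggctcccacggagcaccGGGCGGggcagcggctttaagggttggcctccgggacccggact
Igfbp3: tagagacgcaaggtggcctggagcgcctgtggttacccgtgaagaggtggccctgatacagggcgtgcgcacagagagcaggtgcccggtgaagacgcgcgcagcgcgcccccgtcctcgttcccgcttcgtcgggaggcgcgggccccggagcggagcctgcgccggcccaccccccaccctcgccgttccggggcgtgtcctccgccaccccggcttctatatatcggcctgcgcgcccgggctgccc

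Both windows were rich in G and C, at 74% for Igfbp7 and 73.2% for Igfbp3, against a median of 52.4% over 32851 mouse promoters. The Igfbp7 window held 4 GC boxes and the Igfbp3 window 0. The searched motifs were the GC box, the TATA box (TATAAA), the TCF/LEF core (CTTTGA) and the AP-1 site (TGANTCA), each on both strands. RefSeq gave 12 promoters for 8 of the 10 genes. Of these 12, 6 held a GC box (32.7% of all promoters did), 3 held CTTTGA (13.8%), 1 held TATAAA (12.4%) and 1 held TGANTCA (6.75%). CTTTGA, the letters bound by the TCF/LEF factors of Wnt signaling, was found before Igf1r, before Igf1 and before the most upstream of the 4 Igf2 starts. A match of letters is a description of the window and not a binding site.

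The libraries held 41579787 to 80398211 estimated counts, and mitochondrial transcripts took 28.1 to 53.6% of them. DMSO replicate 1 stood apart from the rest. Olfactory, vomeronasal and taste receptor genes, families without a known use in the heart, summed to 20262 CPM (estimated counts scaled to library size by the TMM method) in that library and to 2981 to 7074 CPM in the other 5. The common dispersion of the gene counts was 0.238 with DMSO replicate 1 and 0.0825 without it. From here on, CPM are estimated counts scaled to library size by the TMM method. All 12 cardiomyocyte markers passed the filter, and their sum was 42637 to 60528 CPM with LGK-974 and 48938 to 67667 CPM with DMSO. In bulk tissue, fewer cells of a type and less RNA per cell cannot be told apart.

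Of the PDGF and IGF genes, Igfbp7, Igf1 and Igfbp3 had no overlap between the treatment groups. Igfbp7 and Igf1 lay above all DMSO mice in each LGK-974 mouse, and Igfbp3 was lower in every LGK-974 mouse. The other 7 overlapped. Across all genes tested, 10.7% lay higher without overlap and 7.27% lower without overlap, so 2 higher and 1 lower of 10 is near the share of genes at large. An unadjusted p under 0.05 in edgeR's quasi-likelihood test was given to the same 3 genes, 2 higher and 1 lower, where all genes gave 13.4% (6.26% higher and 7.18% lower). After Benjamini-Hochberg adjustment edgeR called 0 of the 10 genes and 0% of all genes, with a lowest adjusted p of 0.368 over the whole table. With DESeq2, Igfbp7 alone among the 10 passed an adjusted p of 0.05, against 1.23% of the 23567 genes that received one. The median log2 fold change of the 10 genes was 0.19, and that of all genes tested was −0.13.

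**Figure D1:**
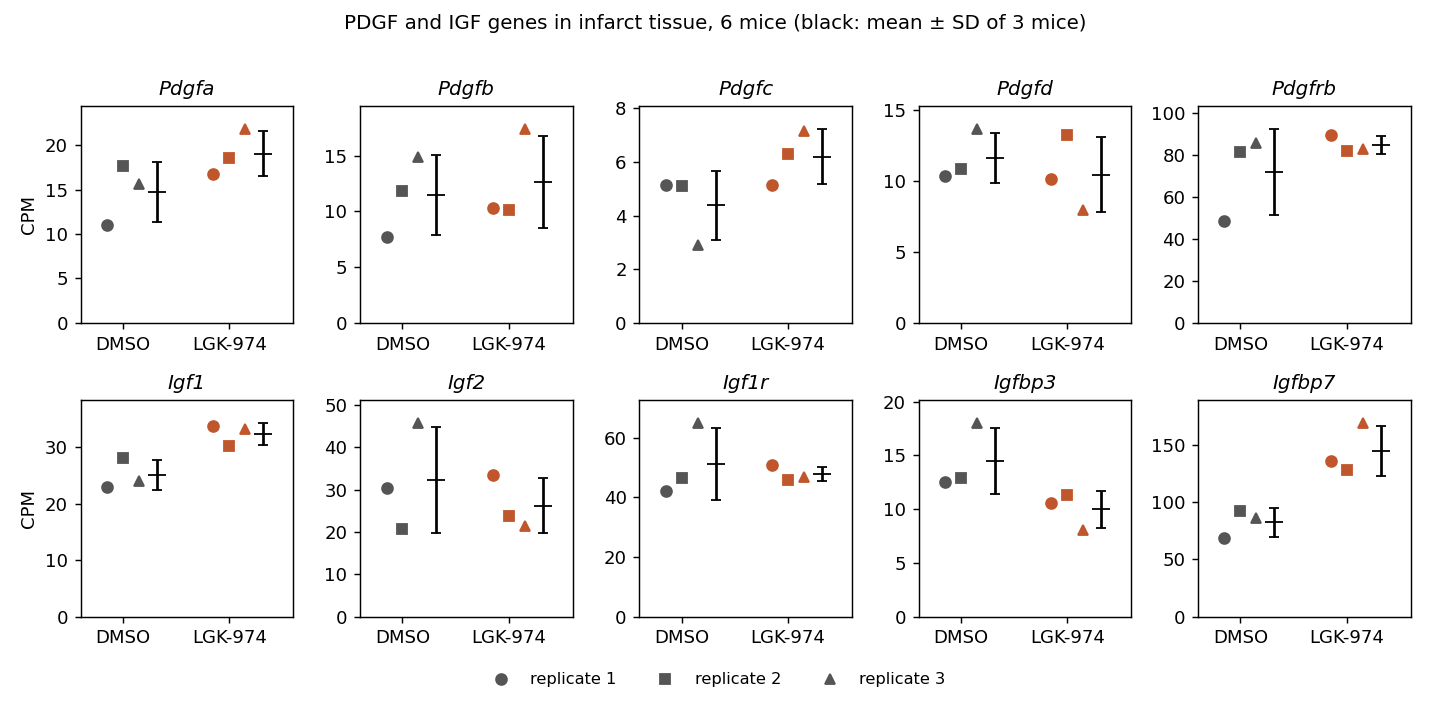
Level of the 10 genes in each of the 6 mice, in CPM after TMM scaling on axes that start at 0, with DMSO in gray, LGK-974 in orange, a symbol for each replicate number and the mean ± SD of 3 mice in black. The groups are apart for Igf1, Igfbp3 and Igfbp7 and overlap for the other 7 genes, and DMSO replicate 1 is the lowest of the 6 mice for 6 genes.

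Among the PDGF ligands, none of the 4 genes was called. Pdgfa, which encodes the chain that binds PDGFRα, lies on chr5:138976014-138997370. It measured 16.8, 18.5 and 21.8 CPM in LGK-974 replicates 1, 2 and 3 and 10.98, 17.6 and 15.6 CPM in DMSO replicates 1, 2 and 3. A single DMSO mouse exceeded the lowest LGK-974 mouse, and DMSO replicate 1 was the lowest of all. The fitted log2 fold change of 0.37 (standard error 0.211) had a Benjamini-Hochberg adjusted p of 0.418 by edgeR, and the value was 0.21 without DMSO replicate 1.

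Pdgfb (chr15:79995874-80014977) encodes the chain that recruits pericytes to vessels through PDGFRβ. Its levels were 10.3, 10.2 and 17.4 CPM with LGK-974 and 7.72, 11.8 and 14.9 CPM with DMSO. The values interleaved, with the highest mouse in the LGK-974 group and the lowest in the DMSO group. With all mice edgeR fitted 0.14 on the log2 scale (standard error 0.307), and −0.07 without DMSO replicate 1.

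Pdgfc and Pdgfd encode ligands that are secreted with a CUB domain and must be cut by proteases before they bind a receptor. Pdgfc (chr3:81036416-81214040) measured 5.12, 6.31 and 7.16 CPM with LGK-974 and 5.13, 5.11 and 2.90 CPM with DMSO. It was the least abundant of the 10 genes, with 118 estimated counts in DMSO replicate 3, and the groups touched at about the same value in LGK-974 replicate 1 and in DMSO replicates 1 and 2. Its log2 fold change of 0.50 (standard error 0.293) was second in size, after Igfbp7, among the genes with higher values under LGK-974, and it was 0.65 without DMSO replicate 1. Pdgfd (chr9:6168584-6378850) measured 10.1, 13.2 and 7.95 CPM with LGK-974 and 10.3, 10.9 and 13.6 CPM with DMSO. The lowest mouse was treated and the highest was a control, while the others were mixed, and the log2 fold change was −0.15 (standard error 0.232).

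Pdgfrb, the receptor tyrosine kinase of pericytes and smooth muscle cells, lies on chr18:61045150-61085061. It measured 89.6, 81.8 and 82.9 CPM in the LGK-974 mice and 48.5, 81.3 and 85.6 CPM in the DMSO mice. The difference between the groups rested on DMSO replicate 1, since the other 5 mice lay within 81.3 to 89.6 CPM. Its log2 fold change of 0.24 (standard error 0.230) was 0.04 without that library. The summed level of 12 mural cell markers, without Pdgfrb, was 1562 CPM in DMSO replicate 1 and 2360 to 2771 CPM in the other 5. Most of that sum was Des, at 897 CPM in DMSO replicate 1 and 1412 to 1854 CPM in the other 5. Single markers differed. Cspg4 and Notch3 were lowest in DMSO replicate 1, while Rgs5 and Abcc9 were lowest in LGK-974 replicate 3.

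Igf1, the ligand that signals through IGF1R in most tissues, lies on chr10:87858265-87937042. It measured 33.8, 30.2 and 33.1 CPM in the LGK-974 mice and 23.0, 28.1 and 24.02 CPM in the DMSO mice. Every LGK-974 mouse was above every DMSO mouse, and the nearest pair was LGK-974 replicate 2 and DMSO replicate 2. Means were 32.4 ± 1.91 CPM under LGK-974 and 25.0 ± 2.69 CPM under DMSO (SD, n = 3 each). This was a log2 fold change of 0.37 (standard error 0.144), at an adjusted p of 0.368 by edgeR and of 0.277 by DESeq2. Without DMSO replicate 1 it was 0.33, and the unadjusted p from edgeR moved from 0.0344 to 0.0583.

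Igf2, the imprinted fetal growth ligand (chr7:142650766-142666816), measured 33.6, 23.8 and 21.4 CPM with LGK-974 and 30.3, 20.7 and 45.8 CPM with DMSO. The spread within DMSO was larger than the difference between the groups, and the highest value was DMSO replicate 3. Its log2 fold change of −0.30 (standard error 0.303) became 0.17 without that mouse. Of the 5723 exon bases of Igf2, 3596 are shared with Gm49394 on the same strand, which received at most 34.9 estimated counts in a library.

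Igf1r, the receptor (chr7:67952827-68233668), measured 50.7, 46.0 and 46.9 CPM with LGK-974 and 42.1, 46.6 and 65.0 CPM with DMSO. All 3 treated values lay inside the range of the controls. Over all mice the fitted log2 fold change stood at −0.10 (standard error 0.193), and at 0.22 without DMSO replicate 3.

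Igfbp3 encodes the main carrier of IGFs in plasma and lies on chr11:7206086-7213923. It measured 10.5, 11.3 and 8.05 CPM in the LGK-974 mice and 12.5, 12.9 and 18.03 CPM in the DMSO mice. Every treated mouse was below every control, with a narrow gap between LGK-974 replicate 2 and DMSO replicate 1. Means were 9.98 ± 1.72 CPM under LGK-974 and 14.5 ± 3.06 CPM under DMSO (SD, n = 3 each). This was a log2 fold change of −0.54 (standard error 0.217), at an adjusted p of 0.368 by edgeR and of 0.329 by DESeq2. It was −0.62 without DMSO replicate 1 and −0.24 without DMSO replicate 3.

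Igfbp7 encodes a secreted protein of the matrix and of vessel walls that binds IGFs weakly, and lies on chr5:77349240-77408041. It measured 136, 128 and 169 CPM in the LGK-974 mice and 68.1, 92.3 and 85.9 CPM in the DMSO mice. The lowest treated mouse was well above the highest control. Means were 144 ± 21.6 CPM under LGK-974 and 82.1 ± 12.5 CPM under DMSO (SD, n = 3 each), a ratio of 1.76. This was a log2 fold change of 0.81 (standard error 0.194), at an unadjusted p of 0.00325 and an adjusted p of 0.368 by edgeR. DESeq2 gave 0.84 with an adjusted p of 0.0192. Without DMSO replicate 1 edgeR gave 0.71 with an unadjusted p of 0.00377. Of its 1209 exon bases, 85 lie opposite exons of Polr2b, which is expressed, and the sources used here do not say whether reads were counted by strand.

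**Figure D2:**
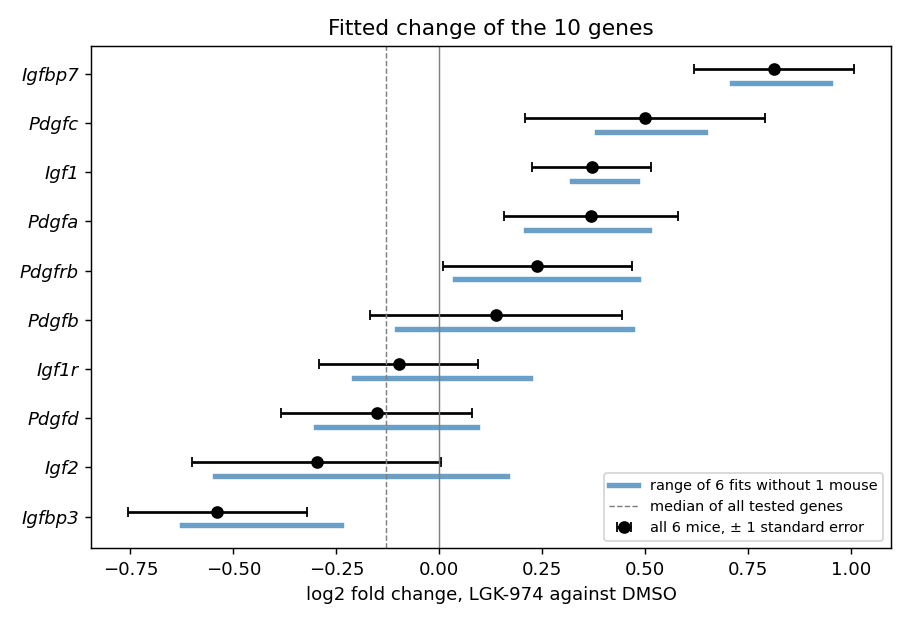
Fitted log2 fold change of each gene, LGK-974 against DMSO, from edgeR with all 6 mice (black points with ± 1 standard error), and the range of the 6 fits that each left out 1 mouse (blue bars), with the median of all tested genes dashed. The blue bars of Igfbp7, Pdgfc, Igf1, Pdgfa and Pdgfrb stay above 0 and that of Igfbp3 stays below 0, while those of Pdgfb, Igf1r, Pdgfd and Igf2 cross 0.

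Markers of several cell types were set beside these genes. The sum of 12 fibroblast markers was 3815 to 6135 CPM with LGK-974 and 1933 to 2995 CPM with DMSO, with 10 of 12 genes at higher values and a median log2 fold change of 0.44. The sum of 12 monocyte and macrophage markers was 607 to 729 CPM with LGK-974 and 276 to 411 CPM with DMSO, with 12 of 12 at higher values. Among the first list, Postn and Col3a1, genes of activated fibroblasts and of the collagen matrix, had log2 fold changes of 1.56 and 1.14. Dcn and Pdgfra of that list stood at 0.005 and 0.13, and Gsn and Fap at −0.68 and −0.21. The fibroblast sum is weighted toward abundant genes, and Col3a1 alone measured 1251 to 2124 CPM with LGK-974 and 519 to 876 CPM with DMSO.

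The endothelial sums overlapped, at 820 to 900 CPM with LGK-974 and 727 to 1023 CPM with DMSO. Neutrophil markers summed to 32.6 to 45.6 CPM with LGK-974 and 40.3 to 78.4 CPM with DMSO, with Ly6g at 0 in 3 of the 6 libraries. The highest sum was that of DMSO replicate 1, where Cxcr2 measured 50.3 CPM, against 12.0 to 17.2 CPM elsewhere. DMSO replicates 2 and 3, at sums of 40.3 and 44.2 CPM, lay within the LGK-974 range. Among the 5 neutrophil genes tested, 3 were higher and 2 lower in the treated group (median 0.08 on the log2 scale). Platelet and megakaryocyte markers, from cells that store PDGF, summed to 41.7 to 47.2 CPM with LGK-974 and 23.9 to 43.1 CPM with DMSO. Pf4 made up most of that sum, at 32.4 to 38.7 CPM with LGK-974 and 14.8 to 34.1 CPM with DMSO. Among the 7 platelet genes tested, 2 were higher and 5 lower in the treated group (median −0.24 on the log2 scale). Of the 12 cardiomyocyte markers, 11 had lower values with LGK-974, the exception being Actc1. The part of these differences in the values of Igfbp7, Igf1 and Igfbp3 was not tested.

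The genes most like Igfbp7 over the 6 libraries, by the root mean square difference of centered log2 CPM, were Aspn (0.0378), Pgam1 (0.0437) and Vim (0.0452). Aspn encodes a small proteoglycan of connective tissue and Vim encodes the intermediate filament of mesenchymal cells. Aspn measured 56.2, 50.1 and 70.0 CPM with LGK-974 and 27.2, 36.9 and 33.0 CPM with DMSO, so it followed Igfbp7 from mouse to mouse. The genes most like Pdgfc were Ttc9, Cenps and Gm10060, with Cenps and Gm10060 at no more than 0.955 and 1.32 CPM. The genes most like Igf2 were Nrg1 (0.0898), a growth factor for cardiomyocytes, Lgals1-ps2 and Gm5737. Nrg1 too was highest in DMSO replicate 3, at 12.4 CPM. Lgals1-ps2 and Gm5737 reached no more than 0.467 and 0.442 CPM, so near the floor that nothing is read from their likeness. All these likenesses share the same 6 libraries and their scaling.

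Levels of different genes were set side by side on the authors' TPM scale, which takes length into account. Igfbp7 was the most abundant of the 10 in both groups, at 179 ± 101 TPM under LGK-974 and 76.4 ± 24.4 TPM under DMSO (SD, n = 3 each). Pdgfrb followed at 17.7 ± 7.20 and 12.0 ± 5.13 TPM, and Pdgfc was lowest at 2.29 ± 1.35 and 1.18 ± 0.311 TPM. In both groups the range of Igfbp7 lay clear of that of Pdgfrb. With DMSO the range of Pdgfd lay clear of that of Pdgfc. All other neighbors in the order overlapped in their ranges over mice.

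Within each mouse the ratio of Igf1 to Igf2 in TPM was 1.38, 1.70 and 2.04 with LGK-974 and 0.786, 1.01 and 0.631 with DMSO. The ligand with the higher level was Igf1 in every LGK-974 mouse and Igf2 in 2 of the DMSO mice. The ratio of Igfbp7 to Igfbp3 was 29.4, 27.4 and 49.2 with LGK-974 and 12.1, 16.4 and 11.1 with DMSO. Neither TPM ratio overlapped between the groups. On the CPM scale, which does not correct for length, the ratio of Igfbp7 to Igfbp3 was likewise apart, while that of Igf1 to Igf2 overlapped, at 1.01, 1.27 and 1.55 with LGK-974 and 0.759, 1.35 and 0.524 with DMSO. The ratio of Pdgfa to Pdgfb did overlap, at 1.74 ± 0.539 under LGK-974 and 1.69 ± 0.459 under DMSO (SD, n = 3 each). These ratios were chosen after the values of the genes were known and carry no test.

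Of the 46 transcripts, 34 passed the filter, 4 had no count in any library and 25 held at least 5% of their gene's counts. After Benjamini-Hochberg adjustment edgeR called 0 of the 34 and 0% of the 58618 transcripts tested. An unadjusted p under 0.05 was given to 3 of the 34, against 5.28% of all transcripts. They were Igfbp7-201, Pdgfc-202 and Igf1r-202. Pdgfc-202 and Igf1r-202 passed the filter only through the group in which they were high, so nothing is read from their tests or from the count of 3. Igf1r-202, a short transcript with a retained intron, had 0, 0 and 1.68 estimated counts with LGK-974 and 28.0, 14.9 and 17.1 with DMSO. Igfbp7-201 is the main product of its gene, with 97.4% of the counts over all libraries, and its log2 fold change was 0.86 (standard error 0.217).

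In shares of estimated counts, which favor long transcripts, Igf1r-201 held 95.6% and Pdgfrb-201 94.1% of their genes over all libraries. Igf1-202, the class 1 form with the Ea type of E peptide and a length of 7052 bases, held 78.2% of the Igf1 counts. In shares of TPM, which correct for length, it held 27.6 to 39.5% in the 6 mice, and in LGK-974 replicate 3 it was below Igf1-206, at 35.3% against 40.5%. Pdgfb-201 held 65.9% of the Pdgfb counts, but in TPM the much shorter Pdgfb-204 was above it in LGK-974 replicate 1 and in DMSO replicates 1 and 3.

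Shares of counts within a gene were compared for 23 transcripts of 8 genes with the exact two-sided permutation test, which cannot go below p = 0.1 with 3 mice against 3. The groups were apart for 1 share, that of Pdgfc-202, and the smallest p adjusted over the 23 shares was 0.627.

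Pdgfc-202 is annotated for nonsense-mediated decay and carries the extra exon printed above. It took 14.8, 4.94 and 24.9% of the Pdgfc counts in LGK-974 replicates 1, 2 and 3 and 0 in all 3 DMSO mice. In estimated counts this was 64.3, 16.7 and 114 against 0, in all 195 against 0. With a floor of 3 counts set for the DMSO group and TMM library sizes, the ratio of LGK-974 to DMSO was 42.6, and 26.3 without LGK-974 replicate 3. This ratio depends on the chosen floor and on how reads are divided between overlapping transcripts, so it is not a lower bound. Since the transcript passed the filter only through the LGK-974 mice, nothing is read from any test of it. The other transcript with the same exon, Pdgfc-203, took 11.8, 3.28 and 12.5% with LGK-974 and 36.2, 15.8 and 10.3% with DMSO. Summed over both transcripts, the extra exon held 24.1 ± 14.8% (SD, n = 3) of the Pdgfc counts with LGK-974 and 20.8 ± 13.6% (SD, n = 3) under DMSO, and the groups overlapped.

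The 52 bases of the Igf1 exon were held by 4 of the 8 Igf1 transcripts, as the whole exon or as the start of a longer last exon. The longer kind is Igf1-201, with 6.90% of the Igf1 counts over all libraries, so the summed share is not that of the printed exon alone. Together these 4 transcripts took 18.3, 20.5 and 17.3% of the Igf1 counts with LGK-974 and 11.3, 17.6 and 13.6% with DMSO. LGK-974 replicate 3 was below DMSO replicate 2, so the groups overlapped. In shares of TPM the same transcripts took 45.4, 57.0 and 59.9% with LGK-974 and 43.8, 31.9 and 48.6% with DMSO, again with overlap. By counts, the class 1 first exon was on 86.3 ± 2.49% (SD, n = 3) of the counts with LGK-974 and on 85.4 ± 1.97% (SD, n = 3) under DMSO. By TPM it was on 43.3, 52.2 and 51.8% with LGK-974 and on 46.7, 52.2 and 44.7% with DMSO. The long form of Pdgfa, Pdgfa-201, took 7.28, 5.94 and 15.7% of the counts with LGK-974 and 14.8, 9.25 and 10.2% with DMSO, again with overlap. These summed exon shares were chosen after the transcript values were known and carry no test.

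**Figure D3:**
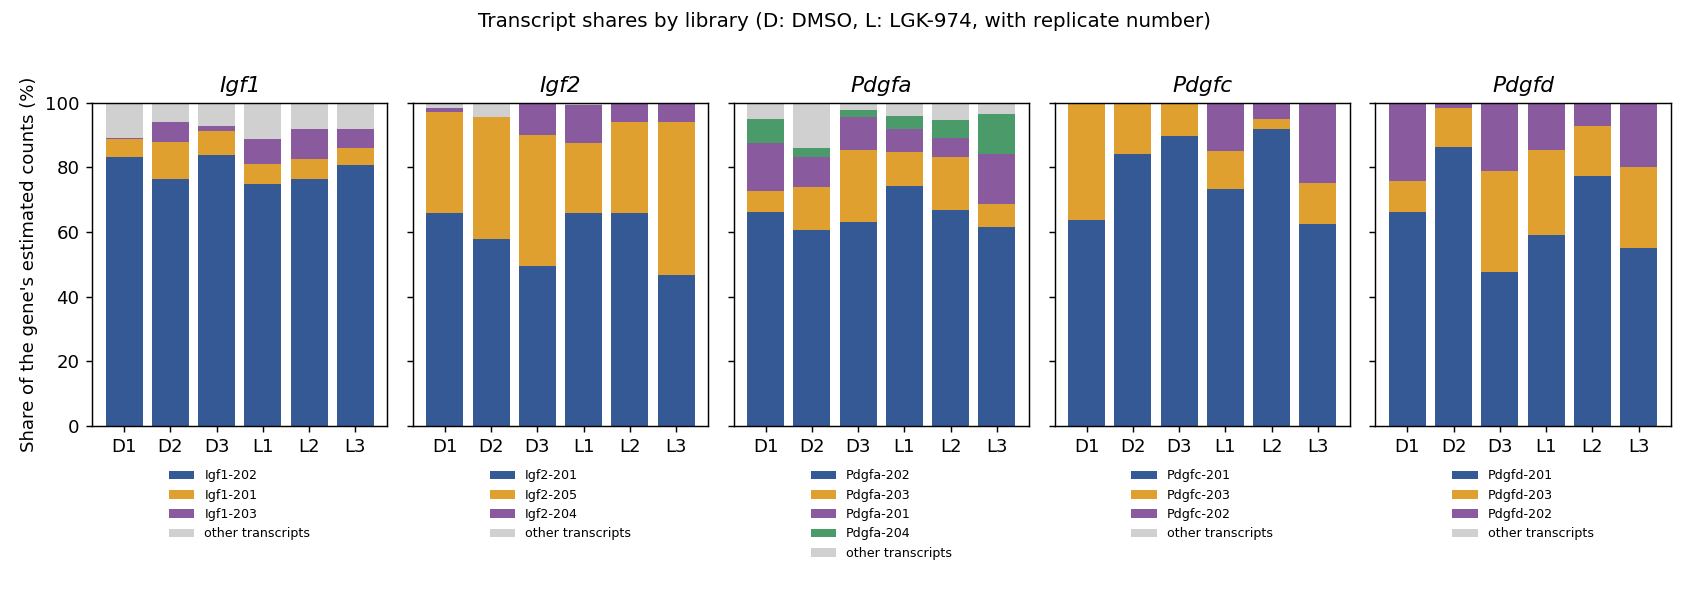
Share of each gene's estimated counts (y axis, percent) taken by its transcripts in each library (x axis; D is DMSO and L is LGK-974, followed by the replicate number), for 5 genes with several transcripts, those under 5% pooled in gray. Igf1-202, the longest of the 3 Igf1 transcripts shown, has the largest share of the Igf1 counts in all 6 mice, and Pdgfc-202 takes 4.94 to 24.9% in the LGK-974 mice and 0 in the DMSO mice.

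Igf2-201 took 59.5 ± 11.1% (SD, n = 3) of the Igf2 counts with LGK-974 and 57.7 ± 8.22% (SD, n = 3) under DMSO. Igf2-205 followed at 32.4 ± 13.3% and 36.5 ± 4.74%. Pdgfd-203, which skips an internal exon of 215 bases, took 22.2 ± 5.82% of the Pdgfd counts with LGK-974 and 17.7 ± 11.9% with DMSO. Pdgfb-202, a transcript with a retained intron, took 22.7 ± 4.08% and 24.4 ± 7.95% of the Pdgfb counts. None of these shares was apart between the groups.

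The PDGF pathway was followed further with 32 other genes, all of which passed the filter. Of them 24 had higher and 8 lower values with LGK-974. Their median log2 fold change was 0.18, against −0.13 for all genes. An unadjusted p under 0.05 was given to 5 with higher values and 1 with lower values, against 6.26% and 7.18% of all genes tested. The groups were apart for 10 with higher and 2 with lower values, against 10.7% and 7.27% of all genes. After adjustment edgeR called 0 of them, and DESeq2 called 2, Ptprj and Sparc (1.23% of all genes).

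Sparc, a matrix protein that binds PDGF chains, measured 686, 533 and 784 CPM with LGK-974 and 291, 431 and 410 CPM with DMSO, and edgeR fitted 0.82 on the log2 scale (standard error 0.253, DESeq2 adjusted p = 0.0373). Plau, the urokinase that can activate PDGF-D, measured 17.0, 12.6 and 15.7 CPM with LGK-974 and 6.66, 10.8 and 8.62 CPM with DMSO, or 0.80 as a log2 fold change (standard error 0.225). For both genes each LGK-974 mouse was above each DMSO mouse. Pdgfra, the other signaling receptor and a fibroblast marker, overlapped at 94.0, 86.2 and 62.1 CPM against 59.1, 83.6 and 78.9 CPM. Pdgfrl, a receptor-like gene, was highest in DMSO replicate 1 at 10.4 CPM and lay at 3.54 to 5.54 CPM elsewhere.

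Among the enzymes and adaptors at the receptor, the tyrosine phosphatases Ptprj and Ptpn1, which remove phosphate from PDGF receptors, were higher in every LGK-974 mouse. Ptprj measured 42.0, 36.5 and 46.1 CPM with LGK-974 and 23.8, 22.9 and 26.4 CPM with DMSO, or 0.77 as a log2 fold change (standard error 0.152, DESeq2 adjusted p = 0.0206). Ptpn1 had a log2 fold change of 0.59 and the adaptor Shb one of 0.74. The genes without overlap on the lower side were Pik3r1, a regulatory subunit of PI3K, and Ptpn11, the phosphatase SHP2, both named here after their values were seen. Pik3r1 measured 133, 154 and 100.2 CPM with LGK-974 against 177, 174 and 248 CPM with DMSO, and −0.63 was its log2 fold change. Ptpn11 measured 80.5, 89.5 and 78.2 CPM against 92.5, 108 and 111 CPM.

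The IGF pathway list had 35 other genes, of which 32 were tested. Igfbp1 and Igfbp2 did not pass the filter, with at most 10 and 29 counts in a library, and H19 was not analysed here. Of the 32, 11 had higher and 21 lower values with LGK-974, and their median log2 fold change was −0.07. An unadjusted p under 0.05 was given to 0 with higher and 2 with lower values, Foxo3 and Pappa2, which is no more than the 6.26% higher and 7.18% lower among all genes. Neither edgeR nor DESeq2 called any after adjustment.

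Foxo3, a transcription factor that AKT holds out of the nucleus, measured 42.2, 46.5 and 38.3 CPM with LGK-974 and 49.4, 62.0 and 89.5 CPM with DMSO, or −0.66 as a log2 fold change (standard error 0.233). Every LGK-974 mouse was below every DMSO mouse. Pappa2, a protease of IGF binding proteins, measured 2.44, 1.79 and 1.25 CPM against 10.6, 4.18 and 1.74 CPM, with DMSO replicate 1 far above the rest. Insrr, the insulin receptor-related receptor, was likewise at 10.9 CPM in DMSO replicate 1 and at 0.578 to 1.80 CPM in the other 5 libraries.

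Of the other receptors, Igf2r, which clears IGF2 from the cell surface, stood at a log2 fold change of 0.16 (SE 0.198), and Insr, the insulin receptor, at −0.45 (standard error 0.284). Grb14, an inhibitor of insulin receptor signaling, stood at −0.51 (standard error 0.271). The further binding proteins Igfbp4, Igfbp5 and Igfbp6 had log2 fold changes of 0.07, 0.28 and −0.05. The proteases Pappa and Htra1 had log2 fold changes of −0.06 and 0.62. None of these 8 genes was apart between the groups.

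**Figure D4:**
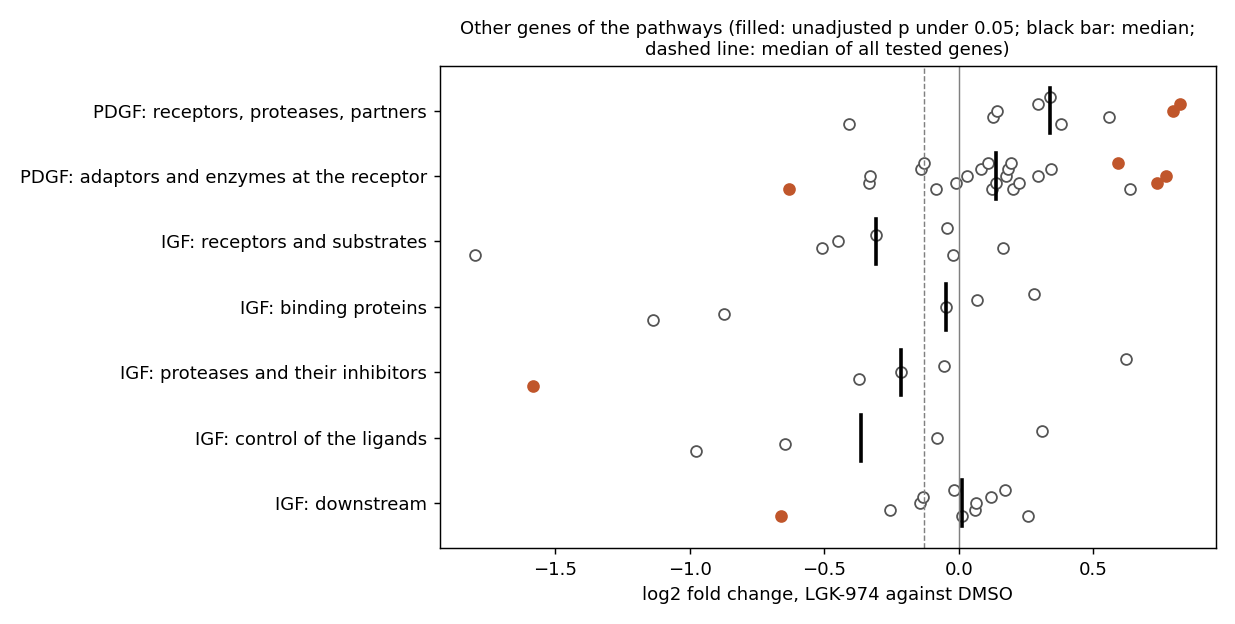
Log2 fold change (x axis), LGK-974 against DMSO, of the 64 tested genes of the pathway lists by role (y axis), 1 point per gene, with an unadjusted p under 0.05 filled, the median of each role as a black bar and the median of all tested genes dashed. The filled points are 6 PDGF genes, of which Pik3r1 alone is below 0, and 2 IGF genes, Foxo3 and Pappa2, both below 0.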

How the data were processed

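RNA from infarct tissue of 3 LGK-974 and 3 DMSO mice was sequenced. The study names both RiboZero depletion and an RNA capture kit. The authors quantified transcripts with kallisto on an Ensembl index of GRCm38 and deposited estimated counts and TPM values per transcript. The aligner's version and its use of strand are not given in the sources used here. Mice were grouped by their labels and come from separate animals.

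Of 118489 transcripts, 98.6% matched the GENCODE annotation and gave 36047 genes, and they held 99.6 to 99.7% of each library's counts. A read matching several transcripts is divided by kallisto, so shares of overlapping transcripts carry assignment error that no test here includes. Per gene, the estimated counts were added up and rounded. Features with at least 10 counts in at least 3 libraries were tested with edgeR 4.0.16 (R 4.3.3), TMM scaling, glmQLFit and glmQLFTest, with treatment as the only term and Benjamini-Hochberg adjustment over all features at 0.05. DESeq2 1.42.0 was the alternative tool. Precision was limited by 3 mice a group. Likeness of genes was computed on log2(CPM + 0.5). Python 3.11.15, pandas 2.3.3, SciPy 1.17.1 and matplotlib 3.10.9 made tables, exact tests and figures.

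The members and the pathway and cell type lists were chosen with earlier results of these data known. Genes named are all members, up to 5 genes per list with the smallest p, and a fixed set of receptors, binding proteins and Pappa. Transcripts with at least 5% of their gene's counts are named too. So are the 3 genes most like each of the 3 members with the widest range. Some further list genes, such as Des, Gsn and Fap, were named after their values were seen. Porcn, the drug's target gene, measured 2.20 ± 0.569 CPM with LGK-974 and 1.94 ± 0.482 CPM with DMSO (SD, n = 3), which as an inhibitor's target checks no label. Alternatives changed the tool, scaling, filter, unit, mitochondrial genes, replicate block and the mice included.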

Additional observations from a re-analysis of the deposited data

How the results depend on the processing

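Limits were the 3 mice a group and DMSO replicate 1, and shallow transcripts such as Pdgfc-202 rest on few counts. The log2 fold change of Igfbp7 was 0.71 to 0.95 over its 12 alternatives, with an unadjusted p under 0.05 in all 12 and an adjusted p from 0.0192 (DESeq2, log2 fold change 0.84) to 0.772. Igf1 had 0.32 to 0.61 (under 0.05 in 5 of 12) and Igfbp3 −0.62 to −0.24 (3 of 12). DESeq2 called 1 of the 10 genes and 1 of their transcripts after adjustment, against 0 for each in edgeR. That transcript, Pdgfc-202, passed the filter only through the LGK-974 mice, so nothing is read from its call. The genes with an unadjusted p under 0.05 numbered 3 with all mice, 1 with no filter on low counts, and 1 to 3 with 1 mouse left out. It was 1, Igfbp7, without LGK-974 replicate 1, 2 or 3 or DMSO replicate 3. The pathway genes numbered 8, and 3 to 11 with 1 mouse left out, with 5 without LGK-974 replicate 1 and 3 without LGK-974 replicate 3. Over all genes the number was 2699 of 20094 with all mice and 4790 of 34257 with no filter. With 1 mouse left out it ran from 821 of 19712 (without LGK-974 replicate 3) to 4628 of 19948 (without DMSO replicate 3). It was 1526 of 18775 without LGK-974 replicate 1. The changing counts of members and pathway genes are therefore not read as results about these genes. Igf1r turned from −0.10 to 0.0257 with no filter. Leaving out 1 mouse gave −0.10 to 0.47 for Pdgfb, −0.30 to 0.0917 for Pdgfd, −0.54 to 0.17 for Igf2 and −0.21 to 0.22 for Igf1r, whose directions therefore changed, and the cause was not tested. The count of members called was 0 in every edgeR fit, while with no filter edgeR called 1206 of 34257 genes. The median of all genes was −0.13 with the filter, over 20094 genes. It was −0.55 without it and −0.75 in DESeq2, each over 34257 genes, which take in those of low count. The zero of a fold change is set by the library scaling and not by these medians. Of 161 alternative share differences, 159 moved by less than the spread between mice and 2 by more.

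Same-numbered mice had correlations of 0.487, −0.0616 and 0.315, and differently numbered mice −0.514 to 0.158. The values 0.487 and 0.315 lay above all differently numbered pairs, while −0.0616 did not. The numbers were not taken as pairs in the main fit, and a pairing was not excluded. With the replicate block, 1 of the 10 genes had an unadjusted p under 0.05 and 0 an adjusted one, and over all genes 3312 had an unadjusted p under 0.05 against 2699 without it.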
